A study of Mus musculus with 8 samples.

Results

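The 49 genes described here are interferon-induced genes and the genes of antigen presentation on MHC class I, chosen by name. They fall into 8 sets by role: sensors of foreign RNA, transcription factors, the ISG15 system, the Parp9 complex, antiviral effectors, interferon-inducible GTPases, antigen presentation and 1 chemokine. They were followed in mouse muscle cells with a mutation of Kdm6a, the X-linked gene of the histone H3 lysine 27 demethylase UTX, over 3 expression tables made from 8 RNA-seq libraries. A gene of that exact name stood in 47 of 49 cases in the female knockout table (of 23115 loci in all), in 44 in the male knockout table (of 28603) and in 45 in the knock-in table (of 28748). The remaining ones shared a locus with a neighbour, namely Eif2ak2 and H2-D1 in every table, Isg20 and Irf9 in the male and knock-in tables, and Dhx58 in the male table. Their merged values are given as such and enter no count.

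The cells were satellite-cell-derived myoblasts of a B6/129 background, grown in medium with 20% serum, exposed to 2.5 µM 4-OH-tamoxifen and differentiated for 24 h. Satellite cells are the stem cells of skeletal muscle. Each of the 6 groups has its own labelled title. The female wild type (WT) carried Pax7-CreER and Rosa26-Floxed-TdTomato, and the female knockout (KO) carried UTX-Floxed beside both. Pax7-CreER limits recombination to cells that express Pax7 when the drug is given, so the gene is lost only in those cells and their progeny, and only as far as recombination goes. For the male WT and KO and for the female knock-in (KI) and its control (Ctrl-KI), the labels used here give no alleles beyond those titles, and the knock-in change is not named. The knockout groups had 1 library each. The KI and Ctrl-KI groups had 2 libraries each, which the deposited table merges into 1 column per group, so that no table holds a replicate value. No label says that libraries came from separate animals.

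Levels are in FPKM, fragment counts scaled to transcript length and library size, so that genes can be compared per length within a table. Where 2 values are given together, the control column comes first and the mutant column second. The tables were estimated separately and levels are compared within a table only. A ratio is the log2 of (mutant FPKM + 1)/(control FPKM + 1), which understates the change of low genes, and a gene was kept where at least 1 column reached 1 FPKM. With 1 column a group there is no test, so 2 descriptions are used: a ratio of at least 2-fold, and deposited confidence intervals of both columns that lie apart. Read depth is unknown. The width of the kept members' deposited intervals had a median of 140% of the level for female WT, 191% for male WT and 42.5% for Ctrl-KI, and such intervals hold no spread between animals.

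Kdm6a, the targeted gene, stood at 20.8 and 16.9 FPKM in females, 7.87 and 2.08 in males and 12.8 and 13.2 in the knock-in pair. The female KO column thus lay close to WT, the male one lay well below it, and the knock-in pair was level. Whether the counted transcript still encodes UTX is not known from FPKM.

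Interferons are secreted proteins that bind receptors on the cell surface and activate JAK kinases and STAT transcription factors. A complex that includes STAT2 and IRF9 then binds the interferon-stimulated response element (ISRE) of type I interferon target genes, while STAT dimers bind the gamma-activated site (GAS). The products of these genes sense viral RNA, block viral replication and entry, and raise the display of peptides on MHC class I. Resting muscle fibres display little MHC class I, and myoblasts in culture can respond to interferon.

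Promoter sequence shows what the members share beyond their names. RefSeq windows from 250 bases before to 50 bases after the annotated start (GRCm38.p6) were found for 39 of the 49 members. Both strands were searched for the ISRE core GAAANNGAAA and the GAS core TTCNNNGAA, and matches were allowed to overlap. At least 1 ISRE core lay in the windows of 19 of 39 members (48.7%), against 1079 of 27025 genes (3.99%). A GAS core lay in 13 of 39 members (33.3%), against 9.55% of all genes. Of the 28 ISRE cores, 23 began before the annotated start, and 9 members had one that began within 100 bases before it. These are matches of letters, not sites shown to be bound. The stretches below are those of 7 members to which the values return, read 5′ to 3′ on the gene's strand, with the ISRE core in capitals. A core on the opposite strand appears as its reverse complement.
Isg15: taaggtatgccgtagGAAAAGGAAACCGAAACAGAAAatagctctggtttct
Ifit1: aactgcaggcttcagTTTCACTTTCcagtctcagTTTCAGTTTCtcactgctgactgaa
Rsad2: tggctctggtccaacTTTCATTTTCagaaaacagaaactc
Gbp3: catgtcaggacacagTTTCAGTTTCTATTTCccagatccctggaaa
Irgm1: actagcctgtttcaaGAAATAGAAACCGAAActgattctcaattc
Igtp: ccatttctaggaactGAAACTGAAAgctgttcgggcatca
B2m: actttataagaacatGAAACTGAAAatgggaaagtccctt
The stretches lie at chr4:156200860-156200911 (minus strand) for Isg15, chr19:34640770-34640828 (plus) for Ifit1, chr12:26456548-26456587 (minus) for Rsad2, chr3:142559984-142560029 (plus) for Gbp3, chr11:48871421-48871465 (minus) for Irgm1, chr11:58199507-58199546 (plus) for Igtp and chr2:122147533-122147572 (plus) for B2m. Isg15 held 3 overlapping cores, the most of these 7, and Ifit1, Gbp3 and Irgm1 held 2 each.

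**Figure D1:**
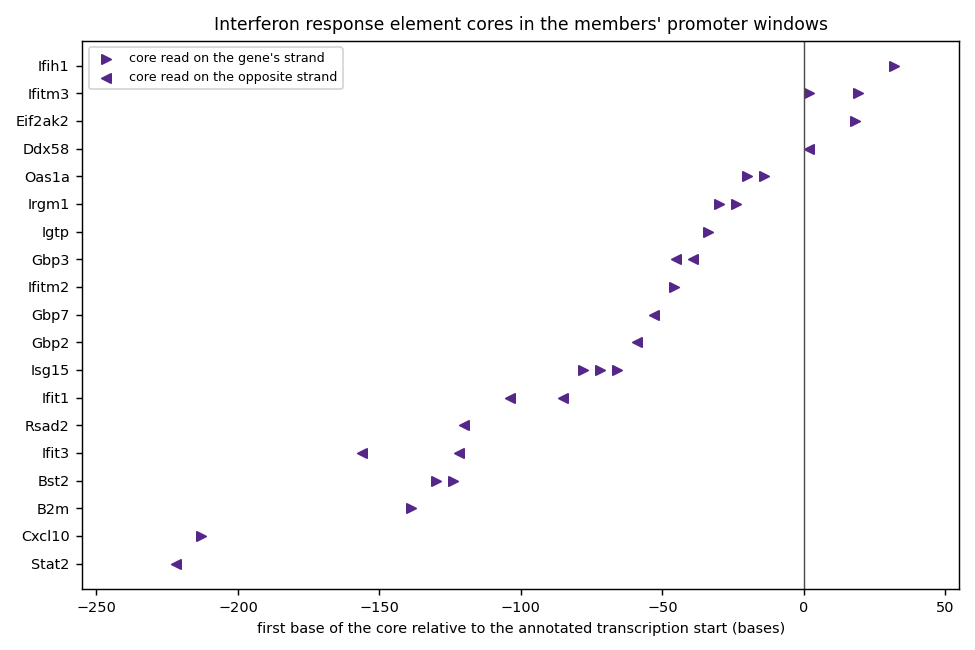
Position of each ISRE core in the promoter windows of the 19 members that hold one, as bases from the annotated transcription start (x axis), with 1 line per gene and the direction of the triangle giving the strand. The cores of Igtp (34 bases before the start) and Irgm1 (30 and 24 bases before) lie close together in position.

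The share of members that was detected differed between the control columns, each set here beside all genes of its own table. In female WT cells 38 of 47 members (80.9%) reached 1 FPKM, against 51.1% of all genes, and their median was 4.02 FPKM. In male WT cells 16 of 44 (36.4%) did, against 46.6% of all genes, with a median of 0.198 FPKM. In Ctrl-KI cells 15 of 45 (33.3%) did, against 46.5% of all genes, with a median of 0.271 FPKM. The members' share was thus above that of all genes in female WT cells and below it in the other 2 control columns, a difference that was not tested. Of the 44 members matched in all 3 tables, 22 were kept in the female knockout table only, among them Isg15's deconjugase Usp18, Rsad2, Ifit1, Ifit3, Oasl2, the Parp9 complex and 5 of the Gbp genes. The same count was not made over all genes, so whether 22 of 44 is unusual for these tables is not known. The female table kept more genes in all, 12344 against 11440 in the male and 11084 in the knock-in table. Mx1, a dynamin-like antiviral GTPase, and Oas1a, an oligoadenylate synthetase, were under 1 FPKM in every column of the 3 tables.

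**Figure D2:**
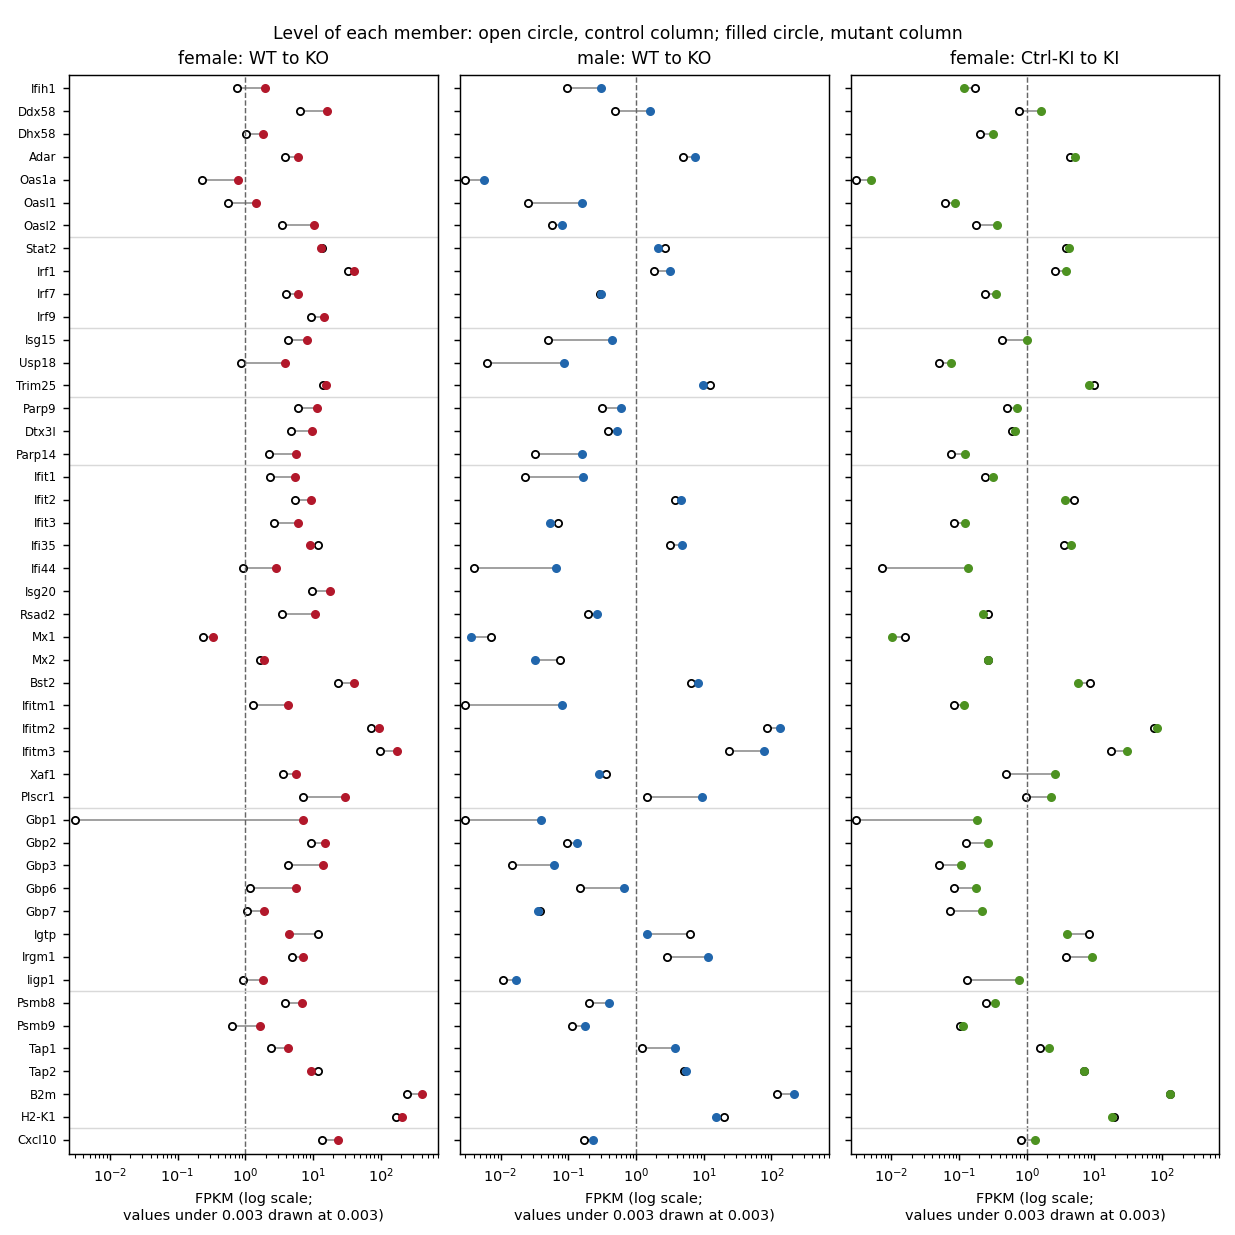
FPKM (x axis, log scale) of each member matched by name in the female knockout, male knockout and knock-in tables, with the control column as an open and the mutant column as a filled circle, grouped by role. At the dashed line of 1 FPKM or right of it lie 38 members in female WT cells, 16 in male WT cells and 15 in Ctrl-KI cells.

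In the female comparison 41 of the 45 kept members lay above WT in KO cells and 4 lay below, where 43.3% of all 12344 kept genes lay above. The median ratio of the members was 0.68, against -0.08 over all genes. A 2-fold higher level was listed for 10 members, among them Gbp1 with a WT level listed at 0, against 4.49% of all genes, and a 2-fold lower level for 1 (Igtp), against 4.4%. Intervals lay apart and higher for 3 members, Plscr1, Gbp1 and Gbp6, against 0.664% of all genes, and apart and lower for none, against 0.235%. The WT interval of Gbp1 was listed from 0 to 0, so any KO interval above 0 would lie apart from it. Of these 45, 7 members were kept only through the KO column (Ifih1, Oasl1, Usp18, Ifi44, Gbp1, Iigp1 and Psmb9), so they could only lie above. Kept by the WT column alone, 34 of 38 members lay above and 8 were 2-fold higher, against 3.82% of all genes. After centring on the median of all genes, or rescaling to TPM, in which each column has the same total, Stat2 also lay above and 3 of the female members lay below.

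In the male comparison 13 of 17 kept members lay above WT and 4 below in FPKM, where 48.4% of 11440 genes lay above. Ddx58 was kept only through the KO column and could only lie above. After rescaling to TPM over all loci 5 of 16 members lay above, where 13.6% of all genes did. The median ratio of the members was 0.50, against -0.02 over all genes. A 2-fold higher level was listed for 4 members (Plscr1, Irgm1, Ifitm3 and Tap1), against 9.9% of all genes, and a 2-fold lower level for 1 (Igtp), against 6.47%. No member had intervals that lay apart in either direction, where 0.603% of all genes were apart and higher and 0.262% apart and lower. The female table holds 0 loci without a gene symbol. In males such loci hold 72.8% of the summed FPKM of WT and 86.1% of KO cells, and rescaling over all loci moved the median of all genes to -0.70. The same rescaling put Adar, Bst2, Ifi35, Ifit2, Ifitm2, Irf1 and Tap2 below WT.

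In the knock-in comparison 15 of 20 kept members lay above Ctrl-KI and 5 below in FPKM, where 42.6% of 11084 genes lay above. After rescaling to TPM over all loci 3 of 17 members lay above, where 5.45% of all genes did. The median ratio was 0.22, against -0.04 over all genes. A 2-fold higher level was listed for 2 members (Xaf1 and Irgm1), against 3.86% of all genes, and a 2-fold lower level for none, against 0.893%. Intervals lay apart and higher for 5 members (Plscr1, Irgm1, Ifitm3, Ddx58 and Xaf1), against 8.27% of all genes, and apart and lower for 1 (Igtp), against 3.73%. Of the 20, 5 were kept only through the KI column (Ddx58, Isg15, Xaf1, Plscr1 and Cxcl10), so they could only lie above, and 3 of these are among the members with intervals apart and higher. Kept by the Ctrl-KI column alone, 10 of 15 members lay above, where 39.9% of all genes did, and 1 was 2-fold higher, against 1.97%. Loci with no symbol hold 57.1% of the summed FPKM of Ctrl-KI and 77.6% of KI cells, and rescaling over all loci moved the median of all genes to -0.77. It left Plscr1, Irgm1 and Xaf1 above Ctrl-KI.

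**Figure D3:**
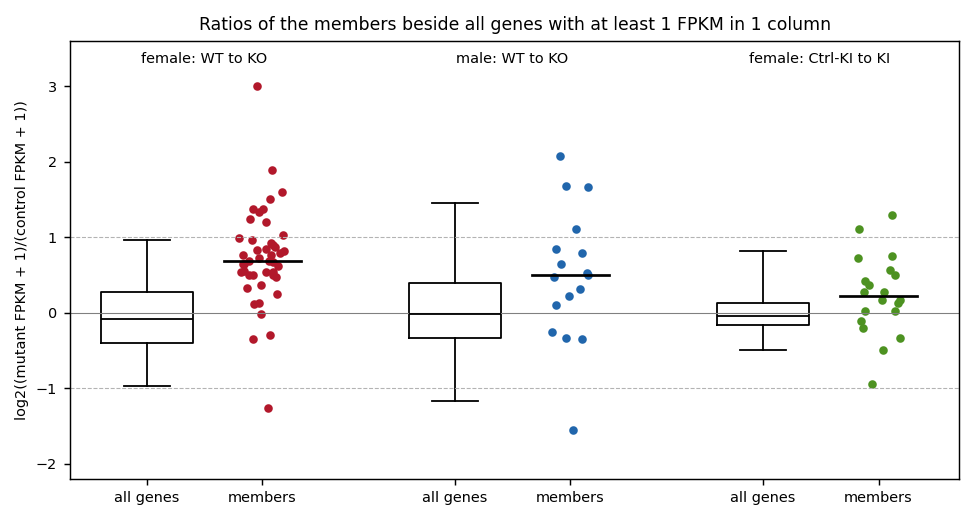
log2 ratio of mutant over control (y axis) of all kept genes as boxes (quartiles, with whiskers to the 5th and 95th percentiles) and of each kept member as a point, with the members' median as a black bar, for the 3 comparisons. The members' medians are 0.68, 0.50 and 0.22, and the Gbp1 point at the top left rests on a WT level listed at 0.

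Markers of other cell types differed between the columns as well, and in bulk RNA fewer cells of a type and less RNA per cell cannot be told apart. The 17 immune markers summed to 11.5 FPKM in WT females and 19.0 in KO females, 3.29 and 13.7 in males, and 1.49 and 41.0 in the knock-in pair, where Lyz2 alone went from 0.282 to 31.0. The pan-leukocyte gene Ptprc was at or under 0.224 FPKM in every column, the NK cell marker Nkg7 was listed at 0 in all of them, and in females Cd52, Tyrobp and Cd3e were also listed at 0 in both columns. Kept immune markers numbered 3, 2 and 5, all above control, but only 1, 1 and 0 of them reached 1 FPKM in the control column, and the others could only lie above. Of those not kept, Itgam was at 0.451 and 0.338 FPKM in females and 0.6996 and 0.149 in males. Their part in the members' differences was not tested.

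The 12 endothelial markers summed to 28.6 and 44.7 FPKM in females, 3.56 and 74.6 in males, and 3.79 and 11.3 in the knock-in pair. The kept ones numbered 9, 5 and 2, of which 8, 5 and 2 lay above control, and 9, 2 and 2 of which reached 1 FPKM in the control column. The male KO sum was carried by Emcn (40.6 FPKM), Eng (13.3) and Cdh5 (12.3), while Kdr, Flt1, Tek, Tie1, Cldn5, Esam and Vwf were all under 1 FPKM there. None was listed at 0 in both columns. The 12 fibro-adipogenic and fibroblast markers summed to 384 and 828, 47.6 and 170, and 31.1 and 539 FPKM, with 9 of 10, 7 of 7 and 11 of 11 kept ones above control, and Lum listed at 0 in both male columns. Only 4 of these 7 in males and 2 of these 11 in the knock-in pair reached 1 FPKM in the control column, and the rest could only lie above. The part of these cells in the members' levels was not tested.

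The 10 muscle markers, which include Myog and Acta1, summed to 6986 FPKM in WT females and 3156 in KO females, 12889 and 3713 in males, and 11827 and 10299 in the knock-in pair, so that every column was rich in muscle transcripts, as labelled. They were lower in both knockout columns, with 9 of 10 and 8 of 9 below WT. In the knock-in pair 7 of 10 lay below control in FPKM, 10 of 10 rescaled over all loci and 5 of 10 after centring. As a share of all kept genes, 43.3% in females, 48.4% in males and 42.6% in the knock-in pair lay above control in FPKM. Rescaled over all loci, 5.45% did in the knock-in pair.

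**Figure D4:**
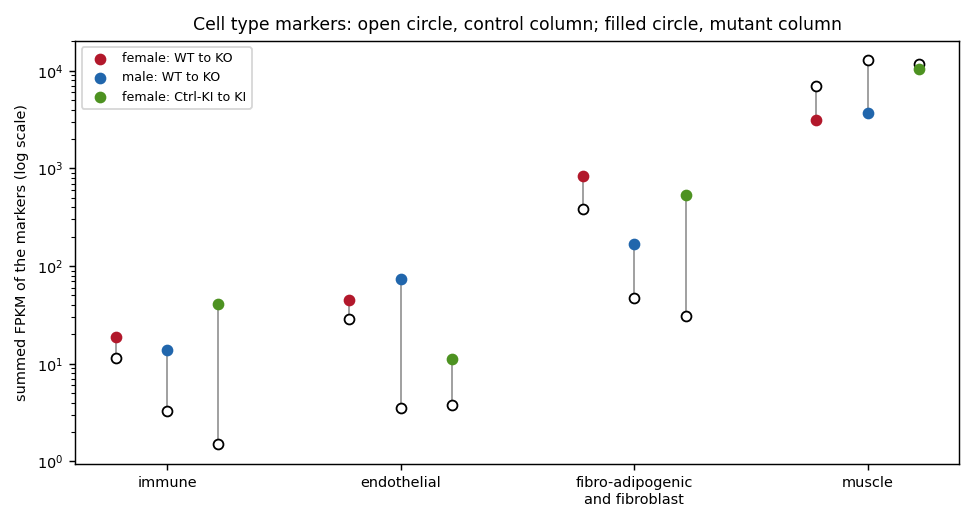
Summed FPKM (y axis, log scale) of the immune, endothelial, fibro-adipogenic and fibroblast, and muscle markers in the control (open circle) and mutant column (filled circle) of each table. The immune sum goes from 1.49 to 41.0 FPKM in the knock-in pair, and the muscle sum from 12889 to 3713 in males.

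Sensors of foreign RNA come first in the pathway. Ddx58 encodes RIG-I, which detects viral RNA in the cytoplasm. It stood at 6.31 FPKM in WT females and 16.2 in KO females, at 0.492 and 1.58 in males, and at 0.772 in Ctrl-KI and 1.61 in KI cells. The mutant column was the higher in all 3 tables, with ratios of 1.23, 0.79 and 0.56, and in the knock-in table the intervals lay apart. In males and in the knock-in pair Ddx58 was kept only through the mutant column and could only lie above. Adar, the RNA editing enzyme that keeps self RNA from being sensed, was at 3.88 and 6.08 FPKM in female, 4.88 and 7.34 in male and 4.42 and 5.10 in Ctrl-KI and KI cells. Its ratios of 0.54, 0.50 and 0.17 were all smaller than 2-fold, and those of males and of the knock-in pair fall below 0 under the rescaling over all loci.

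The other sensors were kept in females only. The OAS-like Oasl2 stood at 3.44 FPKM in WT and 10.2 in KO cells, a ratio of 1.33. Ifih1, which encodes the RNA sensor MDA5, was at 0.746 and 1.98 FPKM, Oasl1 at 0.555 and 1.43, and Dhx58, which encodes the regulatory helicase LGP2, at 1.02 and 1.80. All 6 kept sensors lay above WT in females, under every scaling run. Of these, Ifih1 and Oasl1 were kept only through the KO column and could only lie above in FPKM. The locus that merges Eif2ak2, the kinase PKR, with a predicted gene was at 5.47 and 5.76 FPKM in females, 3.63 and 9.18 in males and 4.22 and 4.52 in the knock-in pair. The male locus that merges Dhx58 with Kat2a was at 15.4 and 19.2 FPKM.

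The transcription factors of the list switch on interferon and interferon-induced genes. Irf1, which is itself induced by interferon gamma and drives class I genes, stood at 32.3 and 40.7 FPKM in females, 1.87 and 3.12 in males and 2.63 and 3.83 in the knock-in pair. Stat2, a part of the ISRE-binding complex, was at 13.3 and 13.1, 2.67 and 2.08, and 3.79 and 4.24 FPKM. Its ratios of -0.02, -0.25 and 0.13 lay on both sides of 0. Irf7, which amplifies type I interferon production, was at 4.02 and 6.09 FPKM in females, and Irf9, the DNA-binding part of the ISRE complex, at 9.46 and 14.3. No factor reached 2-fold in any table, and Irf1 in males and both kept factors in the knock-in pair lie below control when rescaled over all loci. The locus merging Irf9 with Rnf31 was at 4.70 and 5.62 FPKM in males, against 5.47 and 5.72 in the knock-in pair.

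ISG15 is a ubiquitin-like protein that is attached to other proteins during the interferon response. Isg15 stood at 4.20 FPKM in WT females and 8.23 in KO females, under 1 FPKM in males at 0.0507 and 0.441, and at 0.437 and 1.02 in the knock-in pair. The mutant column was higher in each table, with a ratio of 0.83 in females. In the knock-in pair Isg15 was kept only through the KI column and could only lie above. Usp18, which removes ISG15 and damps receptor signalling, was at 0.871 and 3.85 FPKM in females, a ratio of 1.37. It was kept there only through the KO column and could only lie above. Trim25, a ubiquitin ligase that activates RIG-I, was at 13.9 and 15.3 FPKM in females, 12.5 and 9.66 in males and 9.71 and 8.32 in the knock-in pair. It lay above control in the female table and below it in the other two. Parp9 and Dtx3l, partners in a complex that enhances the interferon response, and Parp14, an ADP-ribosyltransferase of the same family, were kept in females only. They stood at 5.99 and 11.6, 4.71 and 9.61, and 2.22 and 5.54 FPKM there, and Parp14 reached a ratio of 1.02.

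Plscr1, phospholipid scramblase 1, an interferon-induced membrane protein with antiviral activity, had the highest ratio in both knockout tables among the members kept in all 3. Its locus lies at chr9:92145032-92167399 (mm9). It stood at 7.17 FPKM in WT females and 29.2 in KO females, at 1.46 and 9.35 in males, and at 0.990 and 2.29 in Ctrl-KI and KI cells. The ratios were 1.89, 2.07 and 0.73, and the intervals lay apart in the female and knock-in tables, in females by little, since the WT interval ended at 12.2 and the KO interval began at 13.3. In the knock-in pair Plscr1 was kept only through the KI column and could only lie above. In males the WT interval ran from 0 to 3.16 FPKM and the KO interval from 1.34 to 17.4, which overlap. The promoter window of Plscr1 holds no ISRE core, which says only that these letters are not in that window.

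The IFITM proteins block the entry of viruses at endosomal membranes. Transcripts of Ifitm2 and Ifitm3, but not of Ifitm1, were among the most abundant of the members. Ifitm3 stood at 95.8 FPKM in WT females and 177 in KO females, at 24.0 and 78.2 in males, and at 17.3 and 29.8 in the knock-in pair. Its ratios were 0.88, 1.66 and 0.76, with intervals apart in the knock-in table, where the ratio becomes -0.04 under the rescaling over all loci. Ifitm2 was at 72.5 and 93.3 FPKM, 86.1 and 135, and 74.6 and 83.7, a smaller difference in each table that turns below 0 in males and in the knock-in pair under that rescaling. Ifitm1 was kept in females only, at 1.28 and 4.22 FPKM, a ratio of 1.19. Thus the family member with the lowest level showed the largest ratio of the 3 in females.

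Proteins of the IFIT family bind viral RNA ends. Ifit1 stood at 2.27 FPKM in female WT and 5.38 in KO, and Ifit3 at 2.64 and 5.90, and both were under 1 FPKM in the other tables. Ifit2 was kept throughout, at 5.40 and 9.24 FPKM in females, 3.78 and 4.59 in males and 4.91 and 3.67 in the knock-in pair, where it lay below control. Rsad2, which encodes the antiviral enzyme viperin, was at 3.53 and 10.7 FPKM in females, a ratio of 1.37, and Isg20, an RNA exonuclease, at 9.80 and 17.9. Together these describe a female difference that had no counterpart above 1 FPKM for Ifit1, Ifit3 and Rsad2 in the other tables. The locus merging Isg20 with Aen was at 39.2 and 51.0 FPKM in males, against 41.4 and 43.7 in the knock-in pair.

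The remaining effectors were mixed. Bst2, or tetherin, which holds budding viruses at the cell surface, stood at 23.1 and 40.5 FPKM in females, 6.41 and 8.23 in males and 8.61 and 5.79 in the knock-in pair, where it lay below control. Xaf1, a pro-apoptotic interferon target, was at 3.55 and 5.60 FPKM in females, under 1 FPKM in males at 0.363 and 0.279, and at 0.496 and 2.65 in the knock-in pair. Its knock-in ratio of 1.29, with intervals apart, was the highest of any member in that table. Xaf1 was kept there only through the KI column and could only lie above. Ifi35 was at 11.7 and 8.92 FPKM in females, 3.17 and 4.78 in males and 3.58 and 4.52 in the knock-in pair. Ifi44 stood at 0.912 and 2.81 FPKM and Mx2, a relative of Mx1, at 1.67 and 1.90 in females only. Of the 14 kept effectors, 13 lay above WT in females, and Ifi35 was the exception. Ifi44 was kept there only through the KO column and could only lie above. In FPKM all 6 kept in males lay above WT, and Bst2, Ifi35, Ifit2 and Ifitm2 did not under the rescaling over all loci.

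The interferon-inducible GTPases act on membranes around intracellular pathogens. The 5 guanylate-binding protein (GBP) genes among the members were kept in females only. Gbp6 stood at 1.18 FPKM in WT and 5.60 in KO cells, a ratio of 1.60 with intervals apart, and Gbp3 at 4.20 and 13.8, a ratio of 1.51. For Gbp1 the WT level was listed at 0 and the KO level was 7.01 FPKM, and no fold is given against a listed 0. Its intervals lay apart, but the WT interval was listed from 0 to 0, from which any interval above 0 lies apart. Gbp2 was at 9.26 and 14.98 FPKM and Gbp7 at 1.06 and 1.92. All 5 lay above WT in females, where Gbp1 was kept only through the KO column and could only lie above. The 5 genes are closely related paralogs, so reads can be split between them and the single values are uncertain.

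Irgm1, Igtp (also called Irgm3) and Iigp1 belong to the immunity-related GTPases, in which the IRGM proteins hold effectors such as Iigp1 inactive on the cell's own membranes. Igtp stood at 11.96 FPKM in WT females and 4.42 in KO females, at 6.18 and 1.44 in males, and at 8.41 and 3.87 in Ctrl-KI and KI cells. Irgm1 stood at 4.82 and 7.20 FPKM in females, 2.86 and 11.4 in males, and 3.79 and 9.31 in the knock-in pair. Igtp was thus the lower, and Irgm1 the higher, in the mutant column of every table. The ratios were -1.26, -1.56 and -0.95 for Igtp and 0.49, 1.68 and 1.10 for Irgm1, and in the knock-in table the intervals of both lay apart. These directions held under every rescaling run, with ratios over all loci of -1.55 for Igtp and 0.37 for Irgm1 in the knock-in pair. Both genes lie on chromosome 11, Igtp at 58013058-58021094 and Irgm1 at 48678751-48684848 (mm9, as in the female table). The Irgm1 locus spans 6098 bases there, 11611 in males and 12569 in the knock-in pair, against 6176 for the RefSeq gene. The part of these widths in its ratios was not tested. The printed promoter stretches of Igtp and Irgm1 both carry ISRE cores in the same orientation within 40 bases of the start. Iigp1 was at 0.927 and 1.80 FPKM in females, where it was kept only through the KO column, and under 1 FPKM in the other tables. In the knock-in pair its levels were 0.132 and 0.767 FPKM, with intervals apart. Oasl2, Ifi44, Gbp1, Gbp6 and Gbp7, also under 1 FPKM in that pair, likewise had intervals apart, with the KI column higher.

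MHC class I molecules present peptides that the immunoproteasome cuts and the TAP transporter carries into the endoplasmic reticulum. B2m, the invariant light chain of class I, was the most abundant member in the female table, at 242 FPKM in WT and 409.7 in KO cells. It stood at 120 and 217 FPKM in males and at 129 and 131 in the knock-in pair. Its ratios were 0.76, 0.85 and 0.02, so that in FPKM it lay above control in both knockout tables and close to control in the knock-in table, while rescaling over all loci gives 0.94, 0.05 and -0.81. The deposited B2m locus spans 66082 bases, against 5396 for the RefSeq gene, and may hold reads of neighbouring transcripts.

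H2-K1, a class I heavy chain, was at 170.5 and 203 FPKM in females, 19.7 and 15.2 in males and 19.6 and 18.0 in the knock-in pair. The locus of the second heavy chain H2-D1, merged with a predicted gene, was at 49.1 and 85.1, 9.17 and 17.7, and 8.45 and 10.5 FPKM. Heavy chains share long stretches of sequence, so reads may be split among them. Tap1 stood at 2.42 and 4.23 FPKM in females, 1.23 and 3.81 in males and 1.59 and 2.12 in the knock-in pair, with ratios of 0.61, 1.11 and 0.27. Its partner Tap2 was at 11.6 and 9.27 FPKM, 5.03 and 5.47, and 7.02 and 7.11, with ratios of -0.30, 0.10 and 0.02. The subunits of this one transporter thus differed, with Tap1 further above control than Tap2 in each table, and under the rescaling over all loci Tap2 in males and both subunits in the knock-in pair lay below control.

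The immunoproteasome subunits Psmb8 and Psmb9 were kept in females only, at 3.89 and 6.77 and at 0.638 and 1.63 FPKM. Psmb6 and Psmb7 encode constitutive subunits, whose places Psmb9 and the related Psmb10 take in the immunoproteasome. They were at 77.3 and 46.2 and at 112 and 64.2 FPKM in the same cells, and lay below control in the male and knock-in tables as well. In females the KO column was the higher for Psmb8 and Psmb9 and the lower for the constitutive pair, under every scaling run. Psmb9 was kept only through the KO column and could only lie above in FPKM. Psmb10 lay below WT in FPKM there, at 9.04 and 7.65. The constitutive pair had the far higher levels. The chemokine Cxcl10, which attracts T cells, was at 13.6 and 23.1 FPKM in females, 0.168 and 0.235 in males and 0.811 and 1.33 in the knock-in pair. It was kept in that pair only through the KI column and could only lie above there. Its locus, like that of B2m, is far wider than the RefSeq gene (82787 against 2252 bases). Loci over 2 times the RefSeq width were found for 7 members in at least 1 table, the others being Dtx3l in all tables, Ifit1 in the male and knock-in tables, Ifi35 in the male table, and Irf7 and Irgm1 in the knock-in table.

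The members kept in every table numbered 17. In FPKM 9 of them lay above control in every table (Adar, B2m, Ddx58, Ifitm2, Ifitm3, Irf1, Irgm1, Plscr1 and Tap1), though Adar, Ifitm2 and Irf1 in males, and Adar, B2m, Ifitm2, Ifitm3, Irf1 and Tap1 in the knock-in pair, do not under the rescaling over all loci, where Ddx58 no longer reaches the minimum of 1 in these 2 tables. Ddx58 in males and in the knock-in pair, and Plscr1 in the knock-in pair, were kept only through the mutant column and could only lie above there. Of the 17, Igtp alone lay below control in every table. Over the 9727 genes kept in all tables, 1776 (18.3%) lay above control throughout and 3025 (31.1%) below.

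**Figure D5:**
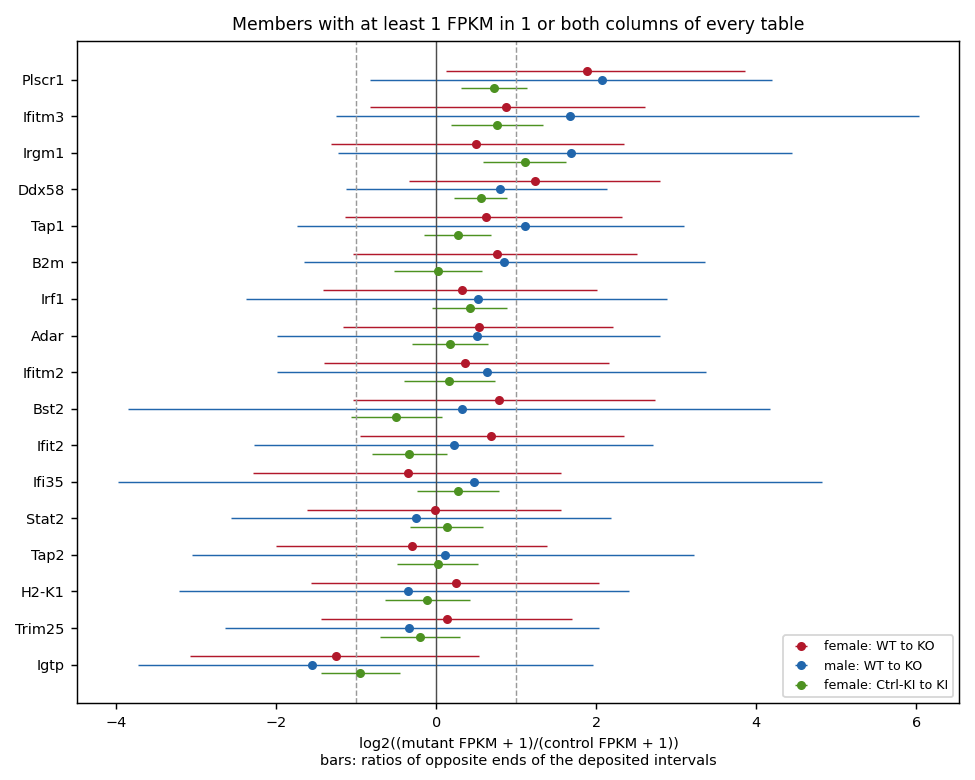
log2 ratio of mutant over control (x axis) of the 17 members kept in all 3 tables, with 3 points per gene, 1 per table. Bars join the ratios formed from opposite ends of the deposited intervals. Igtp lies left of 0 and Plscr1 and Irgm1 right of 0 in each table, and the bars of the male table are the widest.

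The 2 knockout ratios of a gene, female and male, were the only repeated measurement. They were tested against 0 with limma over 10482 genes, of which 17 were members. With Benjamini-Hochberg adjustment no member was called higher or lower, and 0% of all genes were called higher and 0% lower. At an unadjusted p under 0.05 limma listed 6 members higher and 1 lower, and 1000 and 1079 of all genes. Rescaled over all loci these were 1 member higher and 1 lower, and 305 and 553 of all genes. Plscr1 had the smallest p among the members, with a mean ratio of 1.98 ± 0.24 (SE) and a limma adjusted p of 0.0922. Igtp followed with -1.41 ± 0.25 and an adjusted p of 0.0955, and Ifitm3 with 1.27 ± 0.27 and an adjusted p of 0.108. For B2m the mean was 0.80 ± 0.20 with a limma adjusted p of 0.123, for Ddx58 1.01 ± 0.27 with 0.137, for Tap1 0.86 ± 0.28 with 0.178 and for Irgm1 1.09 ± 0.35 with 0.180. The smallest adjusted p over all genes was 0.0505. Ddx58 entered the test in males only through the KO column, so its male ratio could only be positive. With genes kept by the WT column of each table, 16 members were tested. At an unadjusted limma p under 0.05, 5 of these were higher and 1 lower, and 740 and 1114 of 9899 genes. With genes kept only at 5 FPKM or more in 1 column of each table, Plscr1 alone of 11 members was called, with a limma adjusted p of 0.0450, and 42 of 7732 genes were called higher and 88 lower.

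The ratios of members with and without an ISRE core were set side by side, with no test. In females the 17 kept members with a core had a median ratio of 0.77 and the 19 without one a median of 0.64. The medians were 0.71 and 0.49 in males, over 8 members each, and 0.26 and 0.27 in the knock-in pair, over 10 and 9 members. The order of the medians was the same in both knockout tables and was turned, by little, in the knock-in table.

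The interferons themselves were at or near 0. None of the 10 interferon genes listed reached 1 FPKM in any column, all 10 were listed at 0 in both male columns, and Ifnb1 was at 0.107 and 0.305 FPKM in females.

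Receptors and kinases were expressed throughout. In FPKM, 9 of 10 kept genes lay above WT in females, 9 of 10 in males and 6 of 8 in the knock-in pair, while rescaled over all loci 9 of 10, 3 of 9 and 0 of 7 did. In FPKM 1, 2 and 0 of them were 2-fold higher, against 4.49%, 9.9% and 3.86% of all genes. In males 9 of the 10 reached 1 FPKM in WT, and the other could only lie above. Over all kept genes 43.3%, 48.4% and 42.6% lay above in FPKM, against 57.1%, 13.6% and 5.45% rescaled over all loci. Jak2, a kinase of the interferon gamma receptor, stood at 23.5 and 52.0 FPKM in females, 3.11 and 7.996 in males and 3.63 and 5.39 in the knock-in pair. Stat3 was at 61.6 and 124 FPKM in females, but lay below control in males (23.2 and 17.1) and in the knock-in pair (29.9 and 28.5). Tyk2, a kinase of the type I receptor, was at 27.7 and 13.99 FPKM in females, and the lowest ratio after it belonged to the receptor chain Ifnar2, at 18.2 and 18.5. Il10rb, a receptor chain shared by interferon lambda and IL-10, was at 4.57 and 11.003 FPKM in males. The interferon gamma receptor chain Ifngr1 was at 9.88 and 14.9 FPKM in the knock-in pair with intervals apart, and Ifngr2 at 18.0 and 20.2 in males and 16.6 and 16.2 in the knock-in pair.

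Genes that restrain the pathway showed smaller differences. In FPKM 3 of 6 kept lay above control in females and 4 of 6 in each of the other tables, against 6 of 7, 0 of 5 and 0 of 6 when rescaled over all loci. Among all kept genes 43.3%, 48.4% and 42.6% lay above in FPKM, and 57.1%, 13.6% and 5.45% rescaled. In males 5 of the 6 reached 1 FPKM in WT, and the other, Socs3, could only lie above. Irf2, a repressor that competes with IRF1, was at 13.1 and 30.3 FPKM in females and at 6.57 and 9.94 in males. It was the only gene of this list at 2-fold in any table, in females, where 4.49% of all genes were 2-fold higher. The feedback inhibitor Socs3 was at 0.827 and 1.75 FPKM in males, against 2.14 and 3.14 in the knock-in pair, and Socs1 at 5.48 and 4.98 in females and 2.33 and 2.75 in the knock-in pair. The phosphatase Ptpn2 was at 24.6 and 35.1 FPKM in females. In FPKM the phosphatase Ptpn11 lay below control in all tables, though not in females after that rescaling (0.04), at 38.6 and 35.1, 72.2 and 58.0, and 72.7 and 63.6. Pias1 was at 11.97 and 9.52 FPKM in males and at 13.3 and 12.8 in the knock-in pair.

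In the arm that induces interferon, 9 of 11 kept genes lay above WT in females, 4 of 9 in males and 3 of 7 in the knock-in pair, against 9 of 11, 1 of 7 and 0 of 7 when rescaled over all loci. All kept genes lay above in 43.3%, 48.4% and 42.6% of cases in FPKM, and in 57.1%, 13.6% and 5.45% rescaled. Only 10 of these 11 in females and 7 of these 9 in males reached 1 FPKM in WT, and the rest could only lie above. Tmem173, which encodes the DNA-sensing adaptor STING, was at 3.82 and 13.5 FPKM in males and at 3.97 and 5.36 in the knock-in pair. It was the only gene of this arm at 2-fold, in males, where 9.9% of all genes were 2-fold higher. The kinase gene Ikbke was at 19.8 and 36.5 FPKM in females and 0.530 and 2.01 in males, and the nucleic acid sensor Zbp1 at 1.56 and 3.48 in females. Other genes of this arm lay below control. Irf3 and Mavs, which act between sensors and interferon genes, were at 34.3 and 22.9 and at 12.4 and 8.45 FPKM in females, and Mavs at 20.3 and 15.8 in the knock-in pair. Tlr4 was at 20.3 and 10.8 FPKM in males, against 17.4 and 14.8 in the knock-in pair, and Tbk1 at 15.7 and 13.2 in males. Myd88, a Toll-like receptor adaptor, lay above control in the knock-in pair, at 3.85 and 4.70 FPKM.

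A list of 42 further interferon-induced genes was read in the same way. Of 30 kept in females, 25 lay above WT (30 of 33 rescaled over all loci), where 43.3% of all genes did in FPKM. The median ratio was 0.88. A 2-fold higher level was listed for 14, against 4.49% of all genes, and 3 had intervals apart and higher, against 0.664%. Only 23 of the 30 reached 1 FPKM in WT, and the rest, Slfn2 among them, could only lie above. Slfn2 was at 0.839 and 6.69 FPKM, and Ifi204, a nuclear DNA sensor, at 7.29 and 29.0. The lowest ratios were those of Ifi27l2a, at 1.10 and 0.597 FPKM, and Irgm2, at 3.92 and 3.23. In males 10 of 14 kept lay above WT (4 of 6 rescaled over all loci), where 48.4% of all genes did in FPKM. Only 10 of the 14 reached 1 FPKM in WT, and the rest could only lie above. A 2-fold higher level was listed for 6, against 9.9% of all genes. They were led by Gbp9 at 2.09 and 9.72 FPKM and the nuclear body protein Pml at 4.13 and 14.7. Only 1 was 2-fold lower, against 6.47% of all genes, Tor3a at 40.7 and 6.46, followed by Ifi27l1 at 25.1 and 18.0. In the knock-in pair 7 of 9 lay above control (1 of 9 rescaled over all loci), where 42.6% of all genes did in FPKM. None was 2-fold higher, against 3.86% of all genes. Lgals3bp, at 1.01 and 2.70 FPKM, and Ly6e, at 4.92 and 8.37, had intervals apart and higher, against 8.27% of all genes. The third IRGM gene, Irgm2, was at 1.21 and 0.967 FPKM in males, against 1.71 and 1.15 in the knock-in pair, so that in FPKM it lay on the side of Igtp in each table, and Tor3a was at 29.7 and 24.5 in the latter.

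Of the peptide loading and other class I genes, 12 of 14 kept lay above WT in females, 9 of 11 in males and 6 of 7 in the knock-in pair, against 13 of 16, 1 of 7 and 0 of 6 when rescaled over all loci. The shares of all kept genes above control were 43.3%, 48.4% and 42.6% in FPKM, and 57.1%, 13.6% and 5.45% rescaled. Only 9 of these 11 in males and 6 of these 7 in the knock-in pair reached 1 FPKM in the control column, and the rest could only lie above. Tapbp, which encodes the loading chaperone tapasin, was at 23.1 and 50.7 FPKM and H2-Q4 at 31.3 and 67.2 in females. These were the 2 of 14 past 2-fold there, against 4.49% of all genes. Psmb10 and the proteasome activator Psme2 lay below WT there, at 9.04 and 7.65 and at 29.0 and 25.3 FPKM. In males Cd1d1, which presents lipids, was at 1.06 and 4.02 FPKM, the peptide trimming enzyme Erap1 at 1.38 and 2.93, Tapbpl at 4.93 and 3.14 and Psme2 at 31.6 and 29.5. In the knock-in pair H2-T23 was at 0.426 and 1.29 FPKM, Psme2 at 29.8 and 33.7, Erap1 at 1.54 and 1.56 and 1 of 2 loci named H2-T24 at 1.83 and 0.943. Class II genes were largely under 1 FPKM. H2-Ab1 was kept in females at 8.45 and 15.6 FPKM, and H2-DMa was at 2.63 and 2.74, 1.63 and 1.65, and 2.58 and 2.55.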

How the data were processed

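RNA-seq reads were processed by the authors to FPKM values with confidence limits, in 3 Cufflinks tables, per the file headers. Bowtie2 2.2.4, TopHat2 2.0.12, Cufflinks 2.2.1, Cuffdiff, HTSeq 0.6.1, bedtools 2.16.2, edgeR and mm9 are named, without role, per the submitters' processing notes. Members were matched by exact gene symbol. Ratios used a pseudocount of 1 FPKM and genes with at least 1 FPKM in 1 column. The deposited knock-in table holds 1 column for each pair of replicates, so the planned limma test of that table could not be run and it is described like the others. Female and male knockout ratios were tested against 0 with limma 3.58.1 (R 4.3.3, mean-variance trend, threshold 0.05), tested on simulated data. The members, gene lists and tests were chosen with earlier results of these data known. Every member that reached 1 FPKM is named with its values, and of each other pathway list the genes with the 2 highest and 2 lowest ratios per table. 1 further gene is not reported here. Alternatives were other pseudocounts, filters and scalings, merged loci and interval calls. Promoter sequences are from RefSeq (GRCm38.p6).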

Additional observations from a re-analysis of the deposited data

Results flagged for a closer look

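Of the members kept in both knockout tables, 4 lay on opposite sides of their WT in females and males in FPKM. The female minus male difference of the log2 ratios was 0.60 for H2-K1, -0.83 for Ifi35, -0.40 for Tap2 and 0.47 for Trim25. None of the single ratios reached 2-fold and each rests on 1 library a group. The differences between the sexes were not tested, and they depend on the scaling. Rescaled over all loci, Ifi35 (-0.20 in females and -0.13 in males) and Tap2 (-0.14 and -0.47) lay below WT in both, while H2-K1 and Trim25 still lay on opposite sides and so did Adar, Bst2, Ifit2, Ifitm2 and Irf1. That rescaling runs over unlike sets of loci, since 0 loci in the female table and 5680 in the male table have no symbol. It moved the median ratio of all genes to 0.10 in females and -0.70 in males. For Ifi35 the male locus is over 2 times as wide as the RefSeq gene, and the part of this in its difference was not tested.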

How the results depend on the processing

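No paired analysis was possible because the deposited knock-in table merges both replicates of a group into 1 column. For the same reason no replicate could be left out, and leaving out 1 sex leaves 1 ratio and no test. Against 10 members 2-fold higher in females, a pseudocount of 0.1 FPKM gave 17, a pseudocount of 5 gave 3, TPM over all loci or over loci with a symbol gave 21, and asking for intervals apart as well gave 3. The share of all genes 2-fold higher was 4.49% in FPKM, 7.6% and 1.59% with those pseudocounts and 8.81% under TPM. The 1 lower became 0 with a pseudocount of 5 and with intervals apart. Of 4 higher in males, TPM over all loci left 1 and intervals apart left 0. The 1 lower became 0 with a pseudocount of 5 or intervals apart and 2 under TPM over all loci. The 2 higher in the knock-in pair became 4 with a pseudocount of 0.1, 0 with a pseudocount of 5, 1 with a 5 FPKM filter or a filter on the control column, 0 under TPM over all loci and 4 under TPM over loci with a symbol. The 0 lower became 1 with a pseudocount of 0.1 and 2 under TPM over all loci, where 24.6% of all genes in males and 15.7% in the knock-in pair were 2-fold lower. TPM over all loci also turned the members' median ratio to -0.15 in males (from 0.50) and -0.50 in the knock-in pair (from 0.22). Over all genes it moved the share of higher among 2-fold calls from 60.5% to 9.12% in males, from 81.2% to 10.4% in the knock-in pair and from 50.5% to 73.7% in females. That share was 63.2% after centring in females and 71.6% under TPM over symbol loci in males. In the limma test over both sexes, a 5 FPKM filter turned 0 members called higher into 1, while calls over all genes went from 0 to 42 higher and from 0 to 88 lower. At an unadjusted p under 0.05, 6 members were higher, against 1 under TPM over all loci and 11 under TPM over loci with a symbol. Without read counts the depth behind each value is unknown.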
